A study of Mus musculus with 4 samples.

Results

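Genes of leukocyte adhesion were examined in sciatic nerve of 4-month-old C57BL/6 mice of 4 genotypes. The 8 genes, chosen by symbol from the 24062 genes of the count table, were Ackr1, the selectin genes Selp and Sele, the selectin ligand gene Selplg, the immunoglobulin adhesion genes Icam1, Icam2 and Vcam1, and Cd44, and the table listed each of them. PKO-NF1 nerves carried floxed alleles of Nf1 with Dhh-Cre on a P2RY14-/- background, NF1 nerves carried floxed Nf1 with Dhh-Cre alone, PKO nerves were P2RY14-/-, and WT nerves were C57BL/6. Dhh-Cre deletes floxed alleles in the Schwann cell lineage. Each genotype had 1 library, so there is no replicate check on any difference, and the labels do not say how many animals a library holds. The series addresses how genes of the blood-nerve barrier are expressed when Nf1 is lost.

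Leukocytes leave the blood through postcapillary venules. Selectins on the endothelium catch sialylated, fucosylated ligands such as PSGL-1 (Selplg) and let the cell roll; chemokines held on the vessel surface then activate leukocyte integrins, which bind ICAM and VCAM molecules and stop the cell. P-selectin is stored in Weibel-Palade bodies of endothelium and in platelet granules. E-selectin, ICAM-1 and VCAM-1 are raised after cytokines reach NF-kB. Ackr1, an atypical chemokine receptor that does not signal through G proteins, marks venular endothelium and is also made by erythroid cells. In peripheral nerve these molecules sit on endoneurial and epineurial vessels and govern the entry of blood cells.

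The 250 bases before the start of transcription are shown for Selp and Cd44, which were lower and higher in PKO-NF1 than PKO, and for Icam1 and Sele, textbook cytokine-inducible genes of the set. The sequences are from RefSeq on GRCm38.p6, read 5′ to 3′ on the strand of the gene; capitals mark matches on either strand to GGNNNTTCC, a pattern that several NF-kB sites share, and to TATAAA. The letters of the patterns were chosen after the windows had been seen, and no 2 matches overlapped.
Selp, chr1:164115014-164115263, plus strand: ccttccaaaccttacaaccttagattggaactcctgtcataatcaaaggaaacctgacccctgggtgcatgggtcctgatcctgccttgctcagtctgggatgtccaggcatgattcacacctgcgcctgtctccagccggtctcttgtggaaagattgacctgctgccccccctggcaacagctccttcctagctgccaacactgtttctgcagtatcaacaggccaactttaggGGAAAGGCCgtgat
Cd44, chr2:102901666-102901915, minus strand: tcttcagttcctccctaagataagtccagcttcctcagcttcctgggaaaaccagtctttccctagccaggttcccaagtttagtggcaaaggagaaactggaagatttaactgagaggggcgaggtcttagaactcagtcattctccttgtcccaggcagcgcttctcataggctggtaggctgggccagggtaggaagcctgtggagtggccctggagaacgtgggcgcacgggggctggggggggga
Icam1, chr9:21015690-21015939, plus strand: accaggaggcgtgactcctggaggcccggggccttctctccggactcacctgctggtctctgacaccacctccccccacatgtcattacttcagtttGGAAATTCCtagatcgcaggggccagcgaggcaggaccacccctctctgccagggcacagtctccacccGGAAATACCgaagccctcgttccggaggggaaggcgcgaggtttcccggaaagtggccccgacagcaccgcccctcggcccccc
Sele, chr1:164047984-164048233, plus strand: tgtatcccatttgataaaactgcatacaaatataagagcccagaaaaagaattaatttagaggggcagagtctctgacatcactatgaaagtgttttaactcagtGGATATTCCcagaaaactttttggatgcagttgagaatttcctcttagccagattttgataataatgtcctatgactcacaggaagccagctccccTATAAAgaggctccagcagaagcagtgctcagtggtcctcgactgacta
Icam1 held 2 matches to GGNNNTTCC, from 153 to 145 and from 84 to 76 bases before the start, Sele held 1 (145 to 137 bases before the start) and Selp held 1 (14 to 6 bases before it). The Cd44 window held none. Of 32851 windows of this length in the table, 15.7% held GGNNNTTCC and 12.4% held TATAAA, which Sele carried 49 to 44 bases before its start. G and C made up 65.2% of the Icam1 window, 56.4% of that of Cd44, 53.6% of that of Selp and 40.4% of that of Sele, beside a median of 52.4% over all windows. A match is a description of these letters and not a bound site. The window of Ackr1 lies inside annotated exons of Cadm3 and is not printed; Selplg, Icam2 and Vcam1 had no window in the table.

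Libraries held 17771101 (PKO-NF1), 19064779 (NF1), 20362685 (PKO) and 14111201 (WT) counts. Counts were scaled to CPM with TMM factors, and 3 counts, the most that a listed 0 can hide, came to 0.152 to 0.183 CPM. P2ry14 was at 10.6 CPM in PKO-NF1 and 65.3 CPM in NF1, then at 10.9 CPM in PKO and 37.6 CPM in WT. Nf1 was at 20.5 CPM in PKO-NF1 and 41.0 CPM in PKO, then at 63.4 CPM in NF1 and 72.8 CPM in WT, so the library labelled NF1 was only 1.15-fold below WT for the targeted gene. The NF1 library, labelled a repeat, stood apart: 50 skeletal muscle genes took 8.03% of its counts and 0.0242% to 0.168% of the others, and it had 0 counts of Y-linked Ddx3y and 39699 of Xist, where PKO-NF1 had 842 and 9, PKO 396 and 4948, and WT 813 and 10304. Neither a batch nor the sex of the animals can be told apart from the NF1 genotype. Ribosomal protein genes took 11.1% of counts in PKO-NF1, 6.75% in NF1, 14.5% in PKO and 3.64% in WT. With the muscle and ribosomal protein genes taken out and scaling repeated, the same number of adhesion genes met the rule given below in each of the 4 comparisons.

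Per kilobase of the longest annotated transcript, Ackr1 was the most abundant of the 8 genes in WT nerve, at 30.3 CPM per kb, and Icam2 (10.7), Cd44 (10.1) and Icam1 (9.82 CPM per kb) followed. Icam2 and Cd44, and Cd44 and Icam1, did not differ beyond counting error in WT; Ackr1 was 2.84-fold above Icam2 (95% interval 2.44 to 3.32, here and below for counting error only). In PKO-NF1 the order was Icam2 (14.6), Cd44 (12.1), Ackr1 (10.7) and Icam1 (10.01 CPM per kb). Icam2 lay 1.20-fold over Cd44 in that library (1.06 to 1.37), and each further pair of neighbours down to Vcam1 did not differ beyond counting error. In NF1, Ackr1 (11.2) and Cd44 (10.6 CPM per kb) led and did not differ beyond counting error. In PKO, Ackr1 led at 28.7 CPM per kb, and Cd44 was sixth of the 8 at 5.50 CPM per kb. Selp and Sele were the lowest in every library, between 0.458 and 2.47 CPM per kb for Selp and between 0.0697 and 0.405 CPM per kb for Sele. The 8 genes summed to 186 CPM (PKO-NF1), 124 CPM (NF1), 181 CPM (PKO) and 175 CPM (WT).

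**Figure D1:**
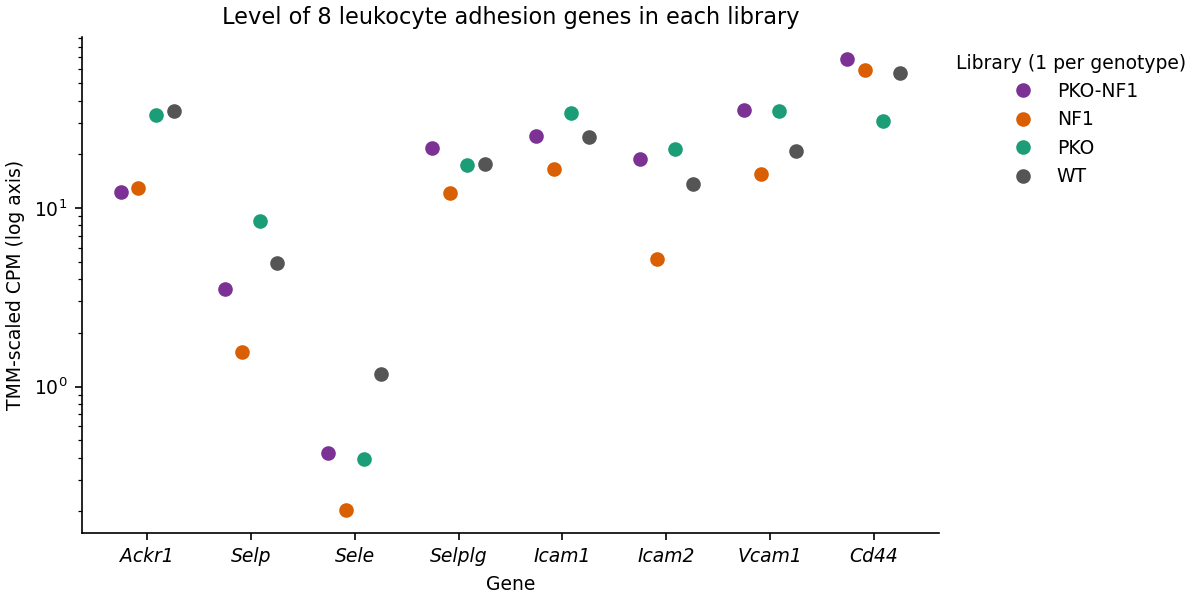
TMM-scaled CPM (log axis) of the 8 leukocyte adhesion genes, 1 point per library, in the order PKO-NF1, NF1, PKO and WT within each gene. Ackr1 splits into 12.3 and 12.9 CPM in PKO-NF1 and NF1 against 33.1 and 34.99 CPM in PKO and WT; Cd44 is set apart by PKO alone, at 30.9 CPM.

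Ackr1 was lower in both libraries with Dhh-Cre and floxed Nf1, by nearly the same factor with and without P2ry14. Ackr1 (ENSMUSG00000037872; chromosome 1, 173331886 to 173333750, minus strand) had 202 counts in PKO-NF1 (12.3 CPM), 255 in NF1 (12.9 CPM), 588 in PKO (33.1 CPM) and 593 in WT (34.99 CPM). The 2 libraries with floxed Nf1 lay below both others, and how many of all genes do so was not counted. Ackr1 was 2.70-fold lower in NF1 than WT (2.33 to 3.14). In PKO-NF1 it was 2.68-fold below PKO (2.28 to 3.16). The log2 ratios differed by 0.01 (-0.30 to 0.32) between the P2ry14 backgrounds. P2ry14 status was accompanied by little difference as measured: the ratio was 1.06-fold lower in PKO than WT (0.943 to 1.19), and PKO-NF1 lay 1.05-fold below NF1 (0.87 to 1.27). When trends of the ratios over transcript length and GC content were removed, both Nf1 comparisons kept their direction (log2 -1.89 in NF1 over WT, -1.66 in PKO-NF1 over PKO). The PKO vs WT value then became -1.05 and that of PKO-NF1 vs NF1 -0.68, so the small P2ry14 difference depended on the processing.

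The count of Ackr1 carries an uncertainty of annotation, since 361 of its exonic bases also belong to Cadm3, a nectin-like adhesion gene on the same strand, and the rule for reads in shared exons is not known here. Cadm3 was at 127 CPM (PKO-NF1), 76.8 CPM (NF1), 345 CPM (PKO) and 268 CPM (WT). It was 3.49-fold lower in NF1 than WT (3.29 to 3.70). In PKO-NF1 it was 2.73-fold below PKO (2.59 to 2.87), the direction of Ackr1. Its part in the Ackr1 result was not tested. The ratio of Ackr1 to Cadm3 counts was 0.0973 in PKO-NF1, 0.168 in NF1, 0.0957 in PKO and 0.131 in WT.

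Selp, which encodes P-selectin (ENSMUSG00000026580; chromosome 1, 164115264 to 164150026, plus strand), followed the direction of Ackr1 in both Nf1 comparisons and, unlike it, was higher where P2ry14 was absent. It had 58 counts in PKO-NF1 (3.54 CPM), 31 in NF1 (1.57 CPM), 151 in PKO (8.49 CPM) and 84 in WT (4.96 CPM). NF1 was the lowest and PKO the highest library. Selp was 3.15-fold lower in NF1 than WT (2.06 to 4.92). In PKO-NF1 it was 2.40-fold below PKO (1.76 to 3.31). It was 2.25-fold higher in PKO-NF1 than NF1 (1.43 to 3.60) and 1.71-fold higher in PKO than WT (1.30 to 2.26), which is short of 2-fold. Antisense transcripts Gm16548 and Gm16587 share 438 and 186 exonic bases with Selp, and the strand setting of the counting is not given.

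Sele, which encodes E-selectin (ENSMUSG00000026582; chromosome 1, 164048234 to 164057677, plus strand), was at the edge of detection. It had 7 counts in PKO-NF1, 4 in NF1, 7 in PKO and 20 in WT, which came to 0.427 CPM (PKO-NF1), 0.203 CPM (NF1), 0.394 CPM (PKO) and 1.18 CPM (WT). It reached 1 CPM in WT alone, so comparisons with WT had to run downward: 5.81-fold lower in NF1 (1.95 to 23.4) and 2.999-fold lower in PKO (1.22 to 8.39). The comparison of PKO-NF1 with PKO spanned 1 (1.09-fold, 0.325 to 3.63). That of PKO-NF1 with NF1 did so too (2.10-fold, 0.535 to 9.80), so neither difference was detectable at this depth.

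Platelets and erythroid cells also make Selp and Ackr1, and their markers were as follows. The summed level of 12 platelet and megakaryocyte genes was 183 CPM (PKO-NF1), 102 CPM (NF1), 202 CPM (PKO) and 125 CPM (WT); the platelet chemokine gene Ppbp was at 8.24 CPM in PKO-NF1 and at 0.254 to 1.18 CPM elsewhere. Of 12 erythroid genes, 6 globin genes were listed at 0 in every library. The treatment of multi-mapped reads is not given, so this is not read as a lack of globin RNA, and the sums below leave globins out. The 12 summed to 132 CPM (PKO-NF1), 5.02 CPM (NF1), 11.7 CPM (PKO) and 16.0 CPM (WT), led by the heme synthesis gene Alas2. The part of platelets and erythroid cells in the levels of Selp and Ackr1 was not tested.

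The immunoglobulin adhesion genes Icam1, Icam2 and Vcam1 were each lowest in the NF1 library and higher in both P2RY14-/- libraries than in both others. For Icam1 the margin was narrow, with PKO-NF1 at 25.4 CPM and WT at 24.9 CPM. Icam2 (ENSMUSG00000001029; chromosome 11, 106377656 to 106388075, minus strand), the constitutive endothelial ligand of the integrin LFA-1, had 307 counts in PKO-NF1 (18.7 CPM), 102 in NF1 (5.18 CPM), 381 in PKO (21.4 CPM) and 232 in WT (13.7 CPM). NF1 was the lowest by a wide margin, while PKO-NF1 and PKO lay close together. Icam2 was 2.64-fold lower in NF1 than WT (2.09 to 3.37) and 3.62-fold higher in PKO-NF1 than NF1 (2.88 to 4.57). It was 1.56-fold higher in PKO than WT (1.33 to 1.85), though with length and GC trends removed that log2 ratio was -0.18. Its ratio of PKO-NF1 to PKO was 1.14-fold lower (0.981 to 1.33), and the log2 ratios of the 2 Nf1 comparisons differed by 1.21 (0.81 to 1.61), with no replicate to set this against.

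Vcam1 (ENSMUSG00000027962; chromosome 3, 116109949 to 116129688, minus strand), the endothelial ligand of the integrin VLA-4, had 584 counts in PKO-NF1 (35.6 CPM), 307 in NF1 (15.6 CPM), 620 in PKO (34.9 CPM) and 353 in WT (20.8 CPM). Both P2RY14-/- libraries lay above both others, as for Icam1 and Icam2, and how many of all genes do so was not counted. Vcam1 was 2.29-fold higher in PKO-NF1 than NF1 (1.99 to 2.63) and 1.67-fold higher in PKO than WT (1.47 to 1.91), with log2 values of 1.20 and 0.81 when length and GC trends were removed. Vcam1 was 1.34-fold lower in the library labelled NF1 than WT (1.14 to 1.56), and its ratio of PKO-NF1 over PKO was 1.02 (0.911 to 1.15). With the trends removed these Nf1 comparisons moved to log2 -0.76 for NF1 over WT and -0.53 for PKO-NF1 over PKO, against -0.42 and 0.03 as measured. The antisense gene Gm43109 shares 61 exonic bases with it.

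Icam1 (ENSMUSG00000037405; chromosome 9, 21015985 to 21028817, plus strand), the inducible ligand of LFA-1 and Mac-1, varied least among the endothelial members. It had 416 counts in PKO-NF1 (25.4 CPM), 328 in NF1 (16.6 CPM), 607 in PKO (34.1 CPM) and 422 in WT (24.9 CPM). It was 1.496-fold lower in NF1 than WT (1.29 to 1.73). In PKO-NF1 it was 1.34-fold below PKO (1.18 to 1.53). Both ratios are short of 2-fold. It was 1.52-fold higher in PKO-NF1 than NF1 (1.32 to 1.77) and 1.37-fold higher in PKO than WT (1.21 to 1.56). The antisense gene Gm47079 shares 511 exonic bases with it.

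Selplg and Cd44, which leukocytes carry, did not meet the 2-fold rule in NF1 vs WT, and Cd44 was higher in PKO-NF1 than PKO. Selplg, the ligand of P-selectin (ENSMUSG00000048163; chromosome 5, 113818536 to 113832644, minus strand) had 357 counts in PKO-NF1 (21.8 CPM), 239 in NF1 (12.1 CPM), 312 in PKO (17.5 CPM) and 299 in WT (17.6 CPM). NF1 was the lowest, and PKO and WT lay together. It was 1.45-fold lower in NF1 than WT (1.22 to 1.73), 1.24-fold higher in PKO-NF1 than PKO (1.06 to 1.45) and 1.80-fold higher in PKO-NF1 than NF1 (1.52 to 2.12). The 12 pan-leukocyte genes, all detected in every library, summed to 681 CPM (PKO-NF1), 392 CPM (NF1), 526 CPM (PKO) and 397 CPM (WT), and 14 macrophage genes to 4047 CPM (PKO-NF1), 2099 CPM (NF1), 2851 CPM (PKO) and 1830 CPM (WT). Selplg was highest in the library where both sums were highest, and the part of leukocyte number was not tested.

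Cd44 (ENSMUSG00000005087; chromosome 2, 102811141 to 102901665, minus strand), the receptor for hyaluronan, whose leukocyte glycoform also binds E-selectin, had 1117 counts in PKO-NF1 (68.2 CPM), 1173 in NF1 (59.5 CPM), 549 in PKO (30.9 CPM) and 962 in WT (56.8 CPM). PKO was set apart as low, and the other 3 libraries lay between 56.8 and 68.2 CPM. Cd44 was 2.21-fold higher in PKO-NF1 than PKO (1.99 to 2.45) and 1.05-fold higher in NF1 than WT (0.962 to 1.14). It was 1.84-fold lower in PKO than WT (1.65 to 2.05), so a high value in PKO-NF1 was not separated from a low one in PKO. Ptprc, the pan-leukocyte phosphatase CD45, was also lowest in PKO, at 35.6 CPM (PKO-NF1), 31.7 CPM (NF1), 22.3 CPM (PKO) and 28.3 CPM (WT). The 12 pan-leukocyte genes summed to 526 CPM in PKO against 397 CPM in WT. In PKO vs WT, 1 of them was higher and none lower, with a median log2 ratio of 0.01. With length and GC trends removed none met the rule, and the median was -0.09. Cd44 counts per Ptprc count were 1.91 in PKO-NF1, 1.88 in NF1, 1.39 in PKO and 2.004 in WT. Cd44 is made by leukocytes, fibroblasts and Schwann cells, and the part of leukocyte number in its level was not tested. In bulk nerve, fewer cells of a type and less RNA per cell cannot be told apart for any of the 8 genes.

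The rule for a difference was a ratio of 2-fold or more with a counting interval that left out 1, applied to the 14700 genes that reached 1 CPM in some library. In NF1 vs WT, 4 of the 8 adhesion genes were lower by this rule (Ackr1, Selp, Sele and Icam2) and none higher, where 6.31% of all genes were lower and 10.4% higher; without Sele, which passed the expression filter only through WT, it was 3 of 7. The median log2 ratio of the 8 was -0.99, beside 0.00 over all genes. Without Sele, the median of the 7 was the value of Icam1, -0.58. In PKO-NF1 vs PKO, 2 were lower (Ackr1 and Selp; 9.7% of all genes) and 1 higher (Cd44; 5.2% of all genes), with a median of -0.08. In PKO-NF1 vs NF1, 3 were higher (Selp, Icam2 and Vcam1) where 7.9% of all genes were higher, with a median of 0.96 beside -0.01 over all genes. In PKO vs WT only Sele was lower, as were 5.22% of all genes, and none was higher. With length and GC trends removed, the same 4 genes were lower in NF1 vs WT (4.51% of all genes lower, 7.54% higher). In PKO-NF1 vs PKO, where 7.84% of all genes met the rule (2.9% higher, 4.94% lower), the same 3 genes did. In PKO vs WT, Sele and Ackr1 were lower (5.78% of all genes lower, 4.9% higher), and in PKO-NF1 vs NF1 the same 3 genes were higher (5.44% of all genes higher, 10.2% lower). The comparisons that share the NF1 library share whatever sets it apart, so the low NF1 values of Icam2 and Selp enter 2 of them. PKO-NF1 also lay apart from NF1 and PKO in the sex-linked genes Xist and Ddx3y. The sex of the animals and genotype cannot be told apart in these comparisons.

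**Figure D2:**
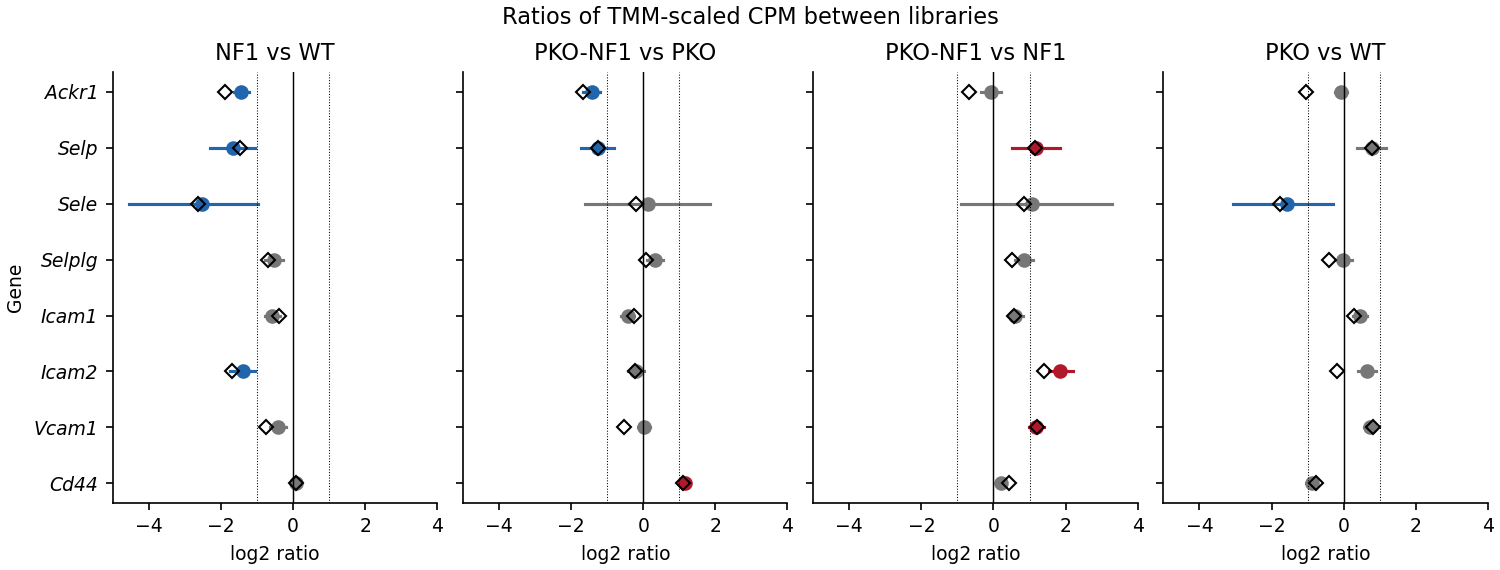
Log2 ratios of TMM-scaled CPM for the 8 genes (rows) in the 4 comparisons (panels), with filled points and 95% counting intervals, blue for lower and red for higher by the 2-fold rule, grey otherwise; open diamonds give the value with length and GC trends removed, and dotted lines mark 2-fold. Ackr1 sits at -1.44 and -1.42 in the 2 Nf1 comparisons, and its diamond falls to -1.05 in PKO vs WT.

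The crossed design allowed 1 test over all 4 libraries, an edgeR quasi-likelihood fit in which Nf1 and P2ry14 status each had a term and added up, and whose single residual degree of freedom is the interaction. For the Nf1 term, 0 of 14105 genes had an adjusted p under 0.05 (0%; 2944 at unadjusted p under 0.05), and none of the 7 adhesion genes tested. Ackr1 had a fitted log2 change of -1.43 (SE 0.21; edgeR adjusted p 0.168) and Selp one of -1.45 (SE 0.34; edgeR adjusted p 0.171), each lower in 2 of 2 comparisons. The DESeq2 Wald test called 296 genes (2.1%), Ackr1 being the single adhesion gene among them (log2 change -1.43, SE 0.40, DESeq2 adjusted p 0.0218). The P2ry14 term called 7 genes in edgeR (0.0496%) and 747 in DESeq2 (5.3%), with no adhesion gene in either. Its largest fitted changes among the 7 were 1.24 for Icam2 (SE 0.36, edgeR adjusted p 0.153) and 0.97 for Vcam1 (SE 0.24, edgeR adjusted p 0.142). These sizes rest on 1 library per genotype. In a model with the P2ry14 term alone, the Icam2 change was 1.09 over all libraries, 0.55 without NF1 and 1.95 without WT. That of Selp was 0.89 over all libraries, 0.28 without NF1, 0.12 without PKO and 1.93 without WT. Vcam1 lay between 0.76 and 1.18 when any 1 library was left out. Leaving out a library makes Nf1 status uneven between the P2ry14 groups. Such shifts mix both factors and cannot show how far a size depends on 1 library. The p-values set each term against the interaction and not against a spread between animals.

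Endothelial markers were lower alongside the venular members in the Nf1 comparisons. Of 20 endothelial genes, 12 were lower and none higher in NF1 vs WT (median log2 -1.17), and 9 were lower in PKO-NF1 vs PKO (median -0.76; 2 with length and GC trends removed). Their summed level was 1633 CPM (PKO-NF1), 958 CPM (NF1), 2102 CPM (PKO) and 1597 CPM (WT), with no gene at 0. In PKO-NF1 vs NF1, 5 of the 20 were higher and none lower (median 0.48), or 6 higher with the trends removed. Among 10 genes of venous endothelium, of which 1 is Vcam1, 7 were lower and 1 higher in NF1 vs WT. In PKO-NF1 vs PKO, 4 were lower and 1 higher. With the trends removed 5 and 1 were lower. In PKO-NF1 vs NF1, 4 of the venous genes were higher and 1 lower, or 6 and 1 with the trends removed. Plvap, of the diaphragms of fenestrated vessels, was at 32.8 CPM (PKO-NF1), 10.8 CPM (NF1), 99.0 CPM (PKO) and 76.4 CPM (WT). Nr2f2, the venous transcription factor COUP-TFII, was at 118 CPM (PKO-NF1), 173 CPM (NF1), 125 CPM (PKO) and 164 CPM (WT) and met the rule in neither Nf1 comparison. Of 10 arterial genes, 3 were lower in each Nf1 comparison, and with the trends removed 2 were lower in NF1 vs WT, with 0 for PKO-NF1 vs PKO. Schwann cell genes were also lower, 6 of 12 in NF1 vs WT and 5 of 12 in PKO-NF1 vs PKO, or 5 and 3 with the trends removed. The part of cell makeup in the adhesion gene results was not tested.

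Set against Pecam1, a junction protein of all endothelium, the endothelial members differed from each other. Counts of Ackr1 per count of Pecam1 were 0.107 in PKO-NF1 (0.0922 to 0.124), 0.296 in NF1 (0.256 to 0.341), 0.208 in PKO (0.190 to 0.227) and 0.260 in WT (0.237 to 0.285). The interval of PKO-NF1 lay below the other 3, while those of NF1 and WT overlapped. Selp per Pecam1 was 0.0308 in PKO-NF1, 0.0360 in NF1, 0.0533 in PKO and 0.0368 in WT, with only PKO-NF1 and PKO apart among the Nf1 pairs. Vcam1 per Pecam1 was higher in both libraries with floxed Nf1, at 0.310 in PKO-NF1 (0.282 to 0.340) against 0.219 in PKO (0.200 to 0.239), and at 0.356 in NF1 (0.312 to 0.406) against 0.155 in WT (0.138 to 0.173). Vcam1 itself was not higher beyond counting error, at log2 -0.42 in NF1 over WT and 0.03 in PKO-NF1 over PKO. The higher ratios thus came with lower Pecam1. Icam2 per Pecam1 was 0.163 in PKO-NF1, 0.118 in NF1, 0.135 in PKO and 0.102 in WT. Such ratios depend on the partner gene. Per count of Vwf, which shares Weibel-Palade bodies with P-selectin, Ackr1 was 0.223 in PKO-NF1, 0.443 in NF1, 0.177 in PKO and 0.231 in WT. Per count of Nr2f2, Ackr1 was 0.105 in PKO-NF1 (0.0901 to 0.121) against 0.264 in PKO (0.241 to 0.289). It was 0.0750 in NF1 (0.0657 to 0.0852) against 0.214 in WT (0.195 to 0.234), lower in both Nf1 comparisons. Selp per Vwf was 0.0642 in PKO-NF1, 0.0539 in NF1, 0.0454 in PKO and 0.0327 in WT, higher in PKO-NF1 than PKO where Selp per Pecam1 was lower. Selplg per count of the leukocyte phosphatase Ptprc was 0.611 in PKO-NF1, 0.382 in NF1, 0.788 in PKO and 0.623 in WT.

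**Figure D3:**
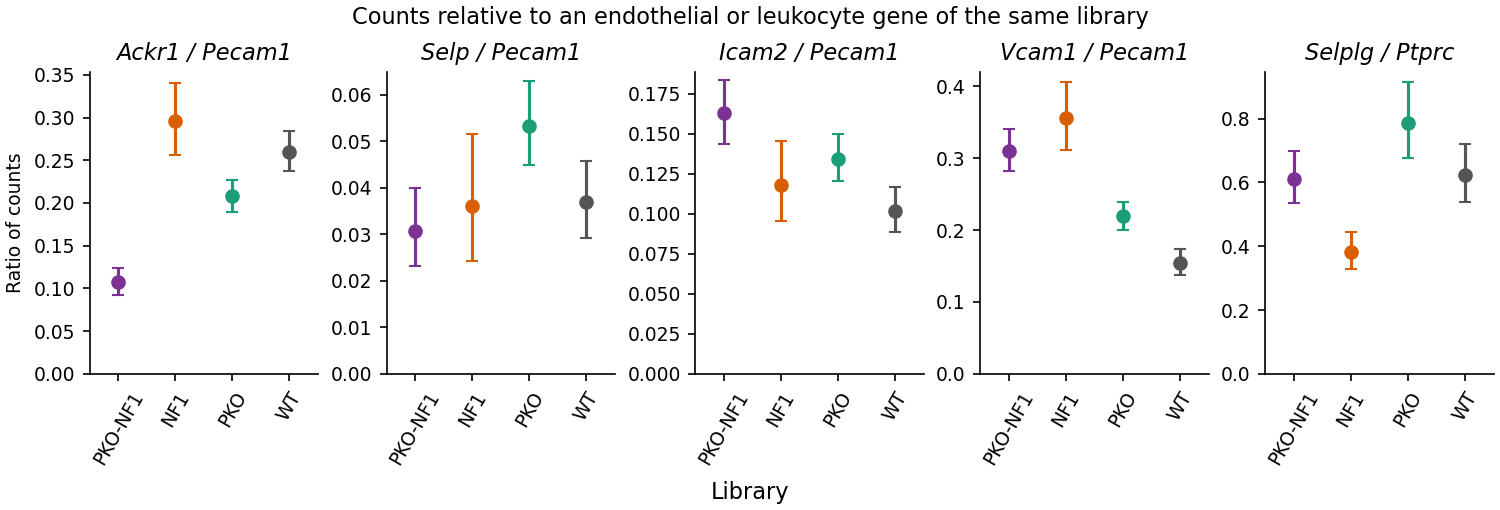
Counts of Ackr1, Selp, Icam2 and Vcam1 per count of the endothelial gene Pecam1, and of Selplg per count of the leukocyte gene Ptprc, in each library, with 95% counting intervals. Ackr1 per Pecam1 is lowest in PKO-NF1 at 0.107, and Vcam1 per Pecam1 is higher in PKO-NF1 and NF1 (0.310 and 0.356) than in PKO and WT (0.219 and 0.155). Vcam1 CPM was not higher beyond counting error in either Nf1 comparison.

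Of 10 genes of leukocyte integrins and their activators, 1 was lower in each Nf1 comparison, the talin gene Tln1, which links integrins to actin. Tln1 was at 89.1 CPM (PKO-NF1), 124 CPM (NF1), 254 CPM (PKO) and 256 CPM (WT), and with length and GC trends removed none of the 10 met the rule. Itgb2, the shared beta chain of LFA-1 and Mac-1, was at 23.2 CPM (PKO-NF1), 17.6 CPM (NF1), 24.3 CPM (PKO) and 27.8 CPM (WT). Itga4, the alpha chain of VLA-4, was at 13.0 CPM (PKO-NF1), 17.9 CPM (NF1), 11.3 CPM (PKO) and 15.9 CPM (WT). Vcam1 counts per Itga4 count were 2.74 in PKO-NF1 and 0.872 in NF1, against 3.08 in PKO and 1.31 in WT.

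Among 15 measured selectin ligands and the enzymes that glycosylate them, 1 was higher and 1 lower in NF1 vs WT and none met the rule in PKO-NF1 vs PKO; with length and GC trends removed 2 were lower in NF1 vs WT. The sialyltransferase gene St3gal6 was 3.87-fold higher in NF1 than WT (3.44 to 4.36), and the sulfotransferase gene Chst2 was 2.43-fold lower (2.25 to 2.64). Fut7, the fucosyltransferase that completes selectin ligands on leukocytes, was between 0.457 and 1.06 CPM. Of 12 other adhesion and transmigration genes 4 were lower in NF1 vs WT (Aoc3, Pecam1, Esam and Icam5) and 1 higher (Icam4). In PKO-NF1 vs PKO, Aoc3 and Esam were lower, 1 gene of the list with the trends removed. Aoc3, vascular adhesion protein 1, which adipocytes and smooth muscle also make, was 4.64-fold lower in NF1 than WT (4.23 to 5.10). In PKO-NF1 it was 2.41-fold below PKO (2.26 to 2.58). Adipocyte genes were lower beside it, 10 of 14 in NF1 vs WT and 5 of 14 in PKO-NF1 vs PKO (8 and 4 with the trends removed), and their part was not tested.

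Of 17 genes of NF-kB signalling and cytokine induction, the inputs of Icam1, Vcam1 and Sele, 1 was higher and none lower in NF1 vs WT and none met the rule in PKO-NF1 vs PKO (medians -0.32 and -0.29). The 1 was Tnf, at 22 counts in NF1 against 7 in WT, and with length and GC trends removed none of the 17 met the rule in either comparison. Nfkbia, the inhibitor and target of NF-kB, was at 181 CPM (PKO-NF1), 76.1 CPM (NF1), 149 CPM (PKO) and 101 CPM (WT).

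Of 15 genes of hyaluronan and of CD44 partners, among them Ezr, Rdx and Msn, which tie CD44 to the cytoskeleton, 4 were lower and 1 higher in NF1 vs WT and 1 was higher in PKO-NF1 vs PKO. With length and GC trends removed, 2 were lower and 1 higher in NF1 vs WT, and 1 was lower and none higher in PKO-NF1 vs PKO. The gene higher in PKO-NF1 vs PKO as measured was Has2, a synthase of the CD44 ligand, at 25.6 CPM (PKO-NF1), 18.3 CPM (NF1), 9.84 CPM (PKO) and 16.9 CPM (WT), with PKO the lowest, as for Cd44. Has2 was 2.60-fold higher in PKO-NF1 than PKO (2.17 to 3.12) and 1.72-fold lower in PKO than WT (1.42 to 2.09). With the trends removed its PKO-NF1 vs PKO log2 ratio was 0.87. Cd44 counts per Has2 count were 2.67 in PKO-NF1, 3.26 in NF1, 3.14 in PKO and 3.35 in WT.

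Of 12 measured genes of chemokines that Ackr1 binds and of the other atypical receptors Ackr2, Ackr3 and Ackr4, 4 were higher and 1 lower in NF1 vs WT and 3 higher and 1 lower in PKO-NF1 vs PKO, or 2 and 1, and 1 and 4, with length and GC trends removed. Ccl2, the monocyte chemoattractant, was 2.50-fold higher in NF1 than WT (2.15 to 2.91) and 2.03-fold higher in PKO-NF1 than PKO (1.73 to 2.38). The log2 values were 0.48 and 0.31 with the trends removed. Ccl8 was at 13.4 CPM (PKO-NF1), 12.0 CPM (NF1), 25.4 CPM (PKO) and 1.95 CPM (WT).

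**Figure D4:**
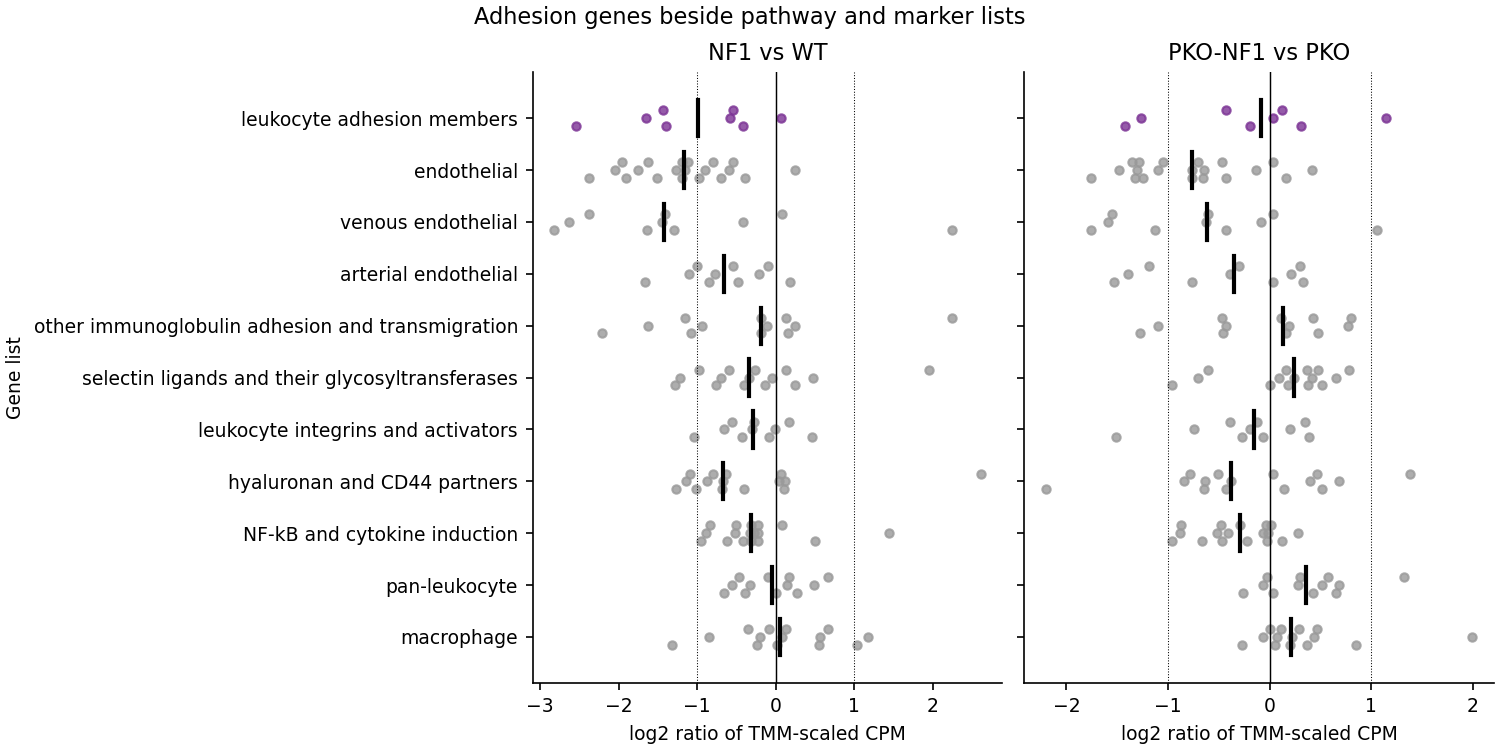
Log2 ratios of TMM-scaled CPM for each gene (points) of the 8 adhesion genes and of 10 pathway and marker lists (rows), for NF1 over WT and PKO-NF1 over PKO, with black bars at the list medians and dotted lines at 2-fold. The endothelial medians are -1.17 and -0.76 and the pan-leukocyte medians -0.05 and 0.36.

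The genes whose pattern over the 4 libraries was most like that of each member were found by root mean square distance between mean-centred log2 CPM, among 11875 genes of at least 5 CPM on average; Selp and Sele were below that level. Nearest to Ackr1 were Ppp1r16b (0.0463), the prostaglandin transporter gene Slco2a1 (0.0552) and the inositol trisphosphate kinase gene Itpkb (0.0564 log2 units), with 11 genes within 0.1. Slco2a1 was at 15.7 CPM (PKO-NF1), 16.5 CPM (NF1), 46.3 CPM (PKO) and 45.1 CPM (WT). Nearest to Cd44 were Gabpb1, Tbp and Luzp2 (0.0215 to 0.0456), and to Icam1 the claudin gene Cldn15, Osgin1 and 2610020H08Rik (0.00972 to 0.0407). Icam2 lay nearest to Ncmap, Slc1a3 and Rab3b (0.0748 to 0.0945), Vcam1 to Plekhf1 and Idh1 (0.0362 and 0.0365) and Selplg to Rassf1, Gltp and Dclre1b (0.0279 to 0.036). With 4 libraries many genes lie this close: 89 were within 0.1 of Selplg and 58 of Icam1.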

How the data were processed

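RNA of sciatic nerve was sequenced for 4 genotypes, 1 library each. Per the labels' protocols, frozen nerves were extracted in Trizol, and 1 ug of RNA went into a TruSeq kit. The unit is raw read counts per gene symbol, taken as the authors deposited them. Per the submitters' processing notes, HISAT2 2.0.5, featureCounts 1.5.2, FastQC 0.11.7 and the mm10 build were used. The sources used here do not give the annotation, strand setting, read length or treatment of multi-mapped reads.

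Counts were scaled with edgeR 4.0.16 TMM factors (0.922, 1.03, 0.873 and 1.20 in PKO-NF1, NF1, PKO and WT). Ratios carry exact conditional (Clopper-Pearson) 95% intervals, which cover counting error only, as each genotype has 1 library. They take each read as an independent molecule, so reads copied by PCR would make them too narrow. The additive edgeR fit used genes at 1 CPM in at least 2 libraries. Scripts were tested on simulated data. GENCODE M21 (GRCm38) gave coordinates, lengths and GC content for the 98.5% of symbols it matched; trends over length and GC content were splines with 4 degrees of freedom each.

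The members and the 21 other lists (311 entries, 4 not found, 2 under another symbol) were chosen with earlier results of these data known. Genes named beyond the members are, per list, up to 3 at each end of each Nf1 comparison and the 3 most abundant, and the 3 most like each member, of which some are not reported here; Cadm3, Ddx3y and Xist were named after their values were seen. Alternatives were DESeq2 1.42.0 size factors or Wald test, total counts, a filter at 5 CPM or none, a threshold of 1.5-fold, leaving out muscle and ribosomal protein genes, trend removal, and 1-term models with each library left out.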

Additional observations from a re-analysis of the deposited data

Results flagged for a closer look

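Selplg stood out because its Nf1 comparison ran in opposite directions on the 2 P2ry14 backgrounds, each interval excluding no change: its log2 ratio was 0.31 in PKO-NF1 vs PKO and -0.54 in NF1 vs WT. Neither reached 2-fold, and with length and GC trends removed the values were 0.07 and -0.69. Cd44 stood out in the same way for P2ry14, with log2 ratios of 0.20 in PKO-NF1 vs NF1 and -0.88 in PKO vs WT. The differences were not tested, because each genotype has 1 library.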

How the results depend on the processing

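Of 32 member ratios (8 genes in 4 comparisons), 26 kept their sign under every alternative, and no value that met the 2-fold rule changed sign. Those that changed sign did not meet the rule: with DESeq2 size factors, Selplg in PKO vs WT, with total counts only, Icam1 in PKO vs WT and Cd44 in NF1 vs WT (-0.15), and with trends removed, Sele and Vcam1 in PKO-NF1 vs PKO and Icam2 in PKO vs WT.

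In PKO vs WT the number of adhesion genes that met the rule was 1; it was 2 with total counts only (Sele and Cd44, log2 -1.34), 2 with trends removed (Sele and Ackr1), 0 with a 5 CPM filter, which drops Sele, and 5 at 1.5-fold. In PKO-NF1 vs NF1 it was 5 at 1.5-fold. Over all genes a 1.5-fold threshold gave 5266 in NF1 vs WT, 5250 in PKO-NF1 vs PKO, 4630 in PKO vs WT and 6475 in PKO-NF1 vs NF1, against 2458, 2190, 2242 and 3193; total counts gave 3477 in PKO vs WT, and trend removal 1152 in PKO-NF1 vs PKO. Total counts moved the median log2 ratio of all genes to -0.54 in PKO vs WT and -0.22 in NF1 vs WT. The share of genes higher among those that met the rule then moved to 21.6% from 65.7% in PKO vs WT, to 41.2% from 62.3% in NF1 vs WT and to 22.5% from 36.4% in PKO-NF1 vs NF1; it was 45.9% in PKO vs WT with trends removed and 51.4% at 1.5-fold.

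For the additive edgeR model, the Nf1 term called 0 genes; it called 46 with no filter and 296 by DESeq2, with 1 adhesion gene there (Ackr1). The P2ry14 term called 7, and 108 with no filter, 747 by DESeq2 and 0 in the 1-term model. Leaving out each library from the 1-term model gave 0 to 84 genes for the Nf1 term, the highest without PKO-NF1, and 0 to 364 for the P2ry14 term, the highest without WT, with no adhesion gene in any. In the 1-term model the fitted Nf1 change of Icam2 was 0.09 without NF1, against -0.56 over all libraries. With a library left out, the factor not in the model is uneven between the groups, so such shifts mix both factors. The additive model has no residual degree of freedom once a library is left out. No paired analysis was possible because each genotype has 1 library. Depth limits Sele, at 4 to 20 counts, and Selp, at 31 to 151. The cause of these changes was not tested.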
